A study of Sus scrofa domesticus with 150 samples.

Results

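Interferon-stimulated genes were followed through the repair of full-thickness skin wounds in pigs. The set was named by symbol and held 9 genes, ISG15, MX1, MX2, IFIT1, IFIT3, RSAD2, IRF7, CXCL10 and GBP1. A gene of the count table belonged to it if its name, or the gene name in its protein match where the name was empty, was 1 of these symbols. Of 30461 genes in the table, 21687 had a symbol and 10 matched, which covered 8 of the 9 symbols. IFIT1 had no matching row and is not analysed here, 7 symbols had 1 row each, and GBP1 had 3 rows.

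RNA was measured in 150 samples from 6 female domestic pigs of a Yorkshire-mix breed, none of which carried a transgene or received a treatment beyond wound care. Circular excisional wounds were made on the back of each animal, 12 per animal and 72 in all, and covered with Telfa Clear and Tegaderm dressings. The 6 day 0 samples were the whole tissue excised at wounding, 1 from each animal. On 14 later days 1 edge and 1 center biopsy was taken from each sampled wound, which was then withdrawn. A topical antibiotic was put on the biopsy site. Day 0 and wound samples thus also differed in how the tissue was taken. Each day and location was one tissue state, giving 29 states with 6 samples, or 3 on days 15, 16, 19 and 21.

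Days 1, 3, 5, 7, 11, 15 and 21 came from animals 1323, 1324 and 1325, and days 2, 4, 6, 9, 13, 16 and 19 from animals 1326, 1327 and 1328. Neighbouring days therefore also differed in the animals sampled, and the day and the set of animals cannot be told apart between them. Up to day 13 each animal gave 2 wounds per day, so that the 6 samples of a state came from 3 animals, and p-values over samples measure the spread between wounds as well as between animals. The age of the animals was not given in the sources used here. Within a state, the samples are numbered as replicates by animal and then by wound letter.

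Interferons are secreted proteins that cells release when they sense viral or misplaced nucleic acid, and, in the case of interferon-gamma, when T cells and NK cells are activated. Type I interferons act through the receptor chains IFNAR1 and IFNAR2, and interferon-gamma through IFNGR1 and IFNGR2. Both pass the signal through Janus kinases to STAT proteins, which switch on a shared set of interferon-stimulated genes. In skin these genes are known from antiviral defence, from inflammatory skin disease and from the early response to injury, where plasmacytoid dendritic cells, macrophages and keratinocytes are among the sources of interferon.

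The members differ in what their proteins do. MX1 and MX2 are dynamin-like GTPases that block viral replication, IFIT3 belongs to a family that binds viral RNA, and RSAD2 (viperin) makes a nucleotide analog that stops viral polymerases. ISG15 is a ubiquitin-like protein that is attached to other proteins and is also secreted. IRF7 is the transcription factor that amplifies type I interferon production. CXCL10 is a chemokine that draws T cells and NK cells through the receptor CXCR3, and GBP1 is a guanylate-binding GTPase that attacks intracellular pathogens and is strongly induced by interferon-gamma.

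The genes lay on contigs of the assembly that the count table uses, whose name was not given in the sources used here. MX2 (ENSSSCG00025052147) and MX1 (ENSSSCG00025053871) were neighbours on the plus strand of contig LUXX01069198.1, at 1034005 to 1070263 and at 1081395 to 1107521. ISG15 (ENSSSCG00025069661) lay on the minus strand of LUXX01074672.1 at 9381806 to 9384315, IFIT3 (ENSSSCG00025004171) on the plus strand of LUXX01011323.1 at 148202 to 182929, and RSAD2 (ENSSSCG00025044589) on the plus strand of LUXX01075714.1 at 1176302 to 1196955. IRF7 (ENSSSCG00025012108) lay on the minus strand of LUXX01014934.1 at 223908 to 227680, and CXCL10 (ENSSSCG00025020263) on the plus strand of LUXX01018793.1 at 1694021 to 1696631. The values are counts over whole genes, so exons and UTRs were not resolved. ISG15 and RSAD2 were recognised by their protein match, the others by name.

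GBP1 is the least certain of these names. Its main row (ENSSSCG00025040795, plus strand of LUXX01043455.1, 29072 to 46128) carried the name GBP1, although the protein match in the same row was to human GBP3. A second row (ENSSSCG00025040418, minus strand, 2096 to 55361) encloses it on the opposite strand, and whether the counting used strand was not stated. That row held 31 to 733 counts per library, with a median of 104, against 140 to 12354 in the main row. The third row (ENSSSCG00025014377) had a median of 0 counts and at most 31. GBP genes form a family of near copies, so reads may be shared among them, and all GBP1 values below are those of the main row.

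Total counts per library ran from 13133379 to 24895572, with a median of 17643938.5, and levels are given as counts scaled to the library total (CPM) or as log2(1 + CPM). In the shallowest library 3 counts made 0.228 CPM. The smallest count of any member in any library was 21, for CXCL10, so no value rested on that floor. Beyond the members, 8 libraries correlated with the replicates of their own state less well than the rest, by Dixon's criterion, applied to the 21 states with 6 samples. Among them were day 2 center replicate 2, day 3 center replicate 4 (animal 1324, wound G) and day 3 edge replicate 6 (animal 1325, wound G). Keratinocyte markers (8 of 9 found) summed to at least 1000 CPM in all but 1 of the 72 edge libraries, that 1 being day 3 edge replicate 6 at 51.6 CPM. In the center libraries of days 1 to 13 they reached the lowest day 0 level, 25987 CPM, only in day 3 center replicate 4, so both of these libraries went against their location labels, and the day 3 results that rest on them are given with and without the libraries that stand apart.

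In unwounded skin all 8 genes were transcribed at low levels. Between genes, levels can be compared only per length, and on that scale the day 0 medians in CPM per kilobase ran from 1.04 for RSAD2 to 7.97 for ISG15. In the center of 1-day-old wounds the medians ran from 15.3 for RSAD2 to 153 for ISG15, with MX1 at 130.0 and IFIT3 at 108. RSAD2 was the lowest and ISG15 the highest of the 8 in both states.

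The first comparison asks how the response to wounding opens. One day after wounding all 8 genes were higher than in day 0 skin at both locations, and for 6 of the 8 the center was also higher than the edge. In the center the rise was 8.98-fold for IRF7 and between 13.8-fold (RSAD2) and 24.1-fold (MX1) for the other 7. Every fold change below comes from an edgeR quasi-likelihood fit across all genes, p-values are Benjamini-Hochberg adjusted over all genes tested, and a gene is called at an adjusted p below 0.05. In the day 1 center fit 33.0% of all genes tested were called higher than day 0, and in the day 1 edge fit 26.4%. In bulk tissue, fewer cells of a type and less RNA per cell cannot be told apart, nor can their opposites.

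The antiviral effectors come first. MX1 was at 8.17 to 33.6 CPM (median 16.5) in the 6 day 0 libraries, at 75.2 to 292 CPM (median 146) at the day 1 edge and at 196 to 735 CPM (median 521) in the day 1 center. The lowest day 1 library at either location lay above the highest day 0 library, as it did for 14.7% at the edge and 23.7% in the center of the 18089 genes with at least 10 counts in at least 3 libraries. The fitted log2 fold change of MX1 against day 0 was 3.09 ± 0.39 (SE) at the edge (edgeR, adjusted p = 5.98e-05) and 4.59 ± 0.41 in the center (adjusted p = 1.90e-06).

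MX2 lay at 9.02 to 20.3 CPM (median 12.1) on day 0 and at 138 to 595 CPM (median 343) in the day 1 center, a log2 fold change of 4.54 ± 0.37 (edgeR, adjusted p = 1.05e-06). IFIT3 lay at 14.8 to 25.4 CPM (median 20.9) on day 0 and at 158 to 736 CPM (median 477) in the day 1 center, a log2 fold change of 4.25 ± 0.38 (edgeR, adjusted p = 2.20e-06). For both genes, too, day 1 and day 0 libraries did not overlap at either location. RSAD2 lay at 5.65 to 13.3 CPM (median 9.03) on day 0, 12.3 to 103 CPM (median 45.2) at the day 1 edge and 55.5 to 261 CPM (median 133) in the day 1 center. It was the exception at the edge, where 5 of 6 libraries exceeded the highest day 0 library and the groups overlapped, although the fold change of 2.39 ± 0.43 was called (edgeR, adjusted p = 5.89e-04).

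ISG15, the ubiquitin-like modifier, was at 8.83 to 25.0 CPM (median 16.8) on day 0, 63.8 to 462 CPM (median 101) at the day 1 edge and 101 to 805 CPM (median 323) in the day 1 center. Its log2 fold change against day 0 was 3.32 ± 0.49 at the edge (edgeR, adjusted p = 1.64e-04) and 4.35 ± 0.54 in the center (adjusted p = 2.26e-05), with no overlap between day 0 and either day 1 group. IRF7, the transcription factor, had the smallest change of the 8 in the center, where it lay at 39.4 to 171 CPM (median 122) after 7.80 to 16.0 CPM (median 9.81) on day 0, a log2 fold change of 3.17 ± 0.34 (edgeR, adjusted p = 6.76e-06). Its day 1 libraries, too, all lay above its day 0 libraries.

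The chemokine CXCL10 lay at 0.981 to 4.42 CPM (median 3.48) on day 0 and reached 12.8 to 66.9 CPM (median 27.9) at the day 1 edge and 14.1 to 110.0 CPM (median 59.8) in the day 1 center. Its log2 fold change in the center was 4.20 ± 0.54 (edgeR, adjusted p = 3.11e-05), and neither day 1 group overlapped with day 0. GBP1, the guanylate-binding GTPase, stood at 7.99 to 15.1 CPM (median 13.1) on day 0, at 17.0 to 131 CPM (median 46.6) at the day 1 edge and at 84.9 to 553 CPM (median 294) in the day 1 center, a log2 fold change of 4.49 ± 0.41 (edgeR, adjusted p = 2.20e-06). The GBP1 row on the opposite strand had medians of 6.08 CPM on day 0 and 13.5 CPM in the day 1 center. At the day 1 edge its median was 5.24 CPM, and its range of 3.89 to 8.81 CPM overlapped with the day 0 range of 4.81 to 7.73 CPM. With the animal as a block the 8 genes remained called at both day 1 locations, with log2 fold changes in the center of 2.74 to 4.37.

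**Figure D1:**
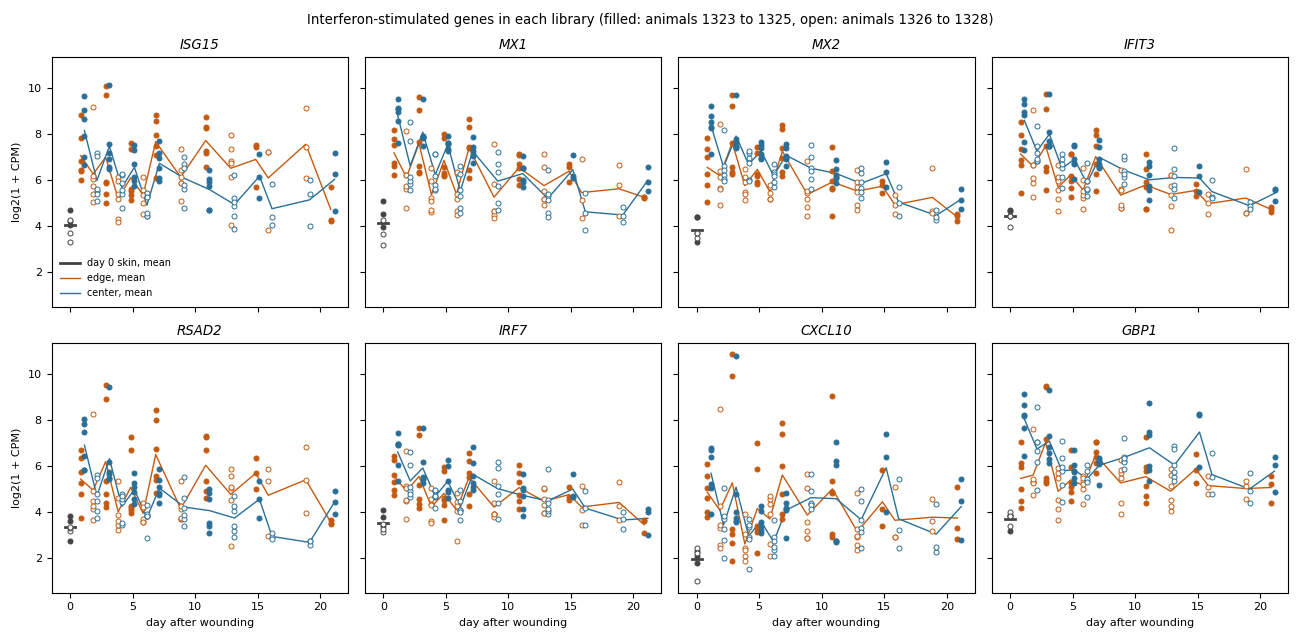
Level of each of the 8 interferon-stimulated genes in log2(1 + CPM), on the vertical axis, against the day after wounding; each point is 1 library, colour gives the location, filled points are animals 1323 to 1325 and open points animals 1326 to 1328, and lines join the means of the states. In the day 1 center MX1 averaged 8.82 ± 0.66 (SD, n = 6) and in day 0 skin 4.12 ± 0.67 (SD, n = 6), and single libraries of CXCL10 on days 2 and 3 stand far above their state.

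Markers of other cell types differed between the same groups. Those of T and NK cells (8 of 9 found) summed to 5.31 to 9.66 CPM on day 0, 23.3 to 112 CPM at the day 1 edge and 65.9 to 161 CPM in the day 1 center. Markers of monocytes and macrophages (9 of 9) summed to 213 to 415 CPM, 297 to 1700.4 CPM and 912 to 3139 CPM, and those of neutrophils (6 of 8) to 16.5 to 29.6 CPM, 693 to 4944 CPM and 529 to 1013 CPM. All 3 leukocyte lists were thus higher on day 1 than in any day 0 library, except at the edge for monocytes and macrophages, whose ranges overlapped. Of their defining markers, CD3G was at 0 in 141 of 150 libraries and in all 6 of day 0, while MARCO was at 0 in 4 day 0 libraries and in no other. Adipocyte markers (4 of 5) summed to 3119 to 13136 CPM in the day 1 center against 72.3 to 1245 CPM on day 0, and skeletal muscle markers (7 of 8) to 3.87 to 10493 CPM against 9.45 to 21.0 CPM, the latter with overlap. Their part in the result was not tested.

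The second comparison asks how long the genes stayed above unwounded skin. Across the 28 wound states the 8 genes gave 224 comparisons with day 0, of which 209 were called higher and 0 lower by edgeR, and 214 had an unadjusted p under 0.05. At the edge 105 of 112 were called higher, beside 22.5% of all genes tested, and in the center 104 of 112, beside 29.8%. Of all genes tested, 25.3% were called lower than day 0, and of the members none. The 28 comparisons share the same 6 day 0 libraries and are not independent of each other.

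IFIT3 and GBP1 were called higher in all 28 states, ISG15, MX2 and CXCL10 in 27, MX1 in 26, IRF7 in 24 and RSAD2 in 22. The median log2 fold change over the 28 states was largest for CXCL10 at 2.66 and smallest for IRF7 at 1.39. Groups that did not overlap with day 0 were most common for MX2 and GBP1, in 26 of 28 states each, and least common for RSAD2, in 11. In all, the wound libraries lay wholly above day 0 in 149 of 224 member comparisons, 66.5%, beside 15.3% over the 18089 genes, and wholly below it in 0. The 15 comparisons that were not called fell at the day 4 edge (RSAD2, CXCL10), at the day 6 edge (IRF7) and center (RSAD2), in the day 13 center (RSAD2) and, for the other 10, on days 16 to 21.

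**Figure D2:**
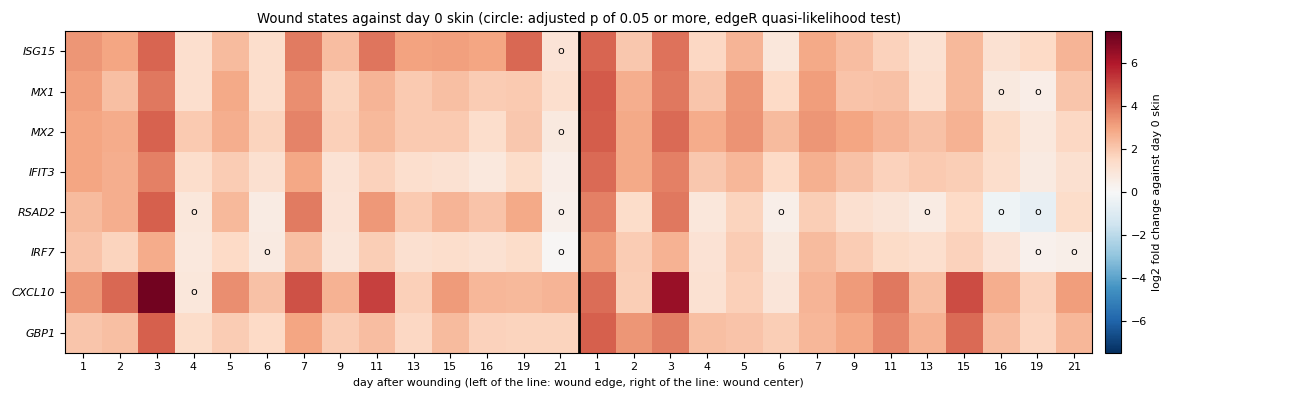
Fitted log2 fold change of each gene (rows) in each wound state (columns, edge left of the line and center right of it, by day after wounding) against the 6 day 0 libraries, as colour; circles mark the 15 comparisons with an adjusted p of 0.05 or more. The largest value is CXCL10 at the day 3 edge, 7.22 ± 1.78 (SE), and the only negative values are RSAD2 in the day 16 and day 19 centers.

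With the animal as a replicate block, 171 of the 224 were called, all higher, beside 18.7% of all gene tests under the block and 26.1% without it, 40 of the 209 calls being lost and 2 gained. The losses included 5 of the 8 genes at the day 3 edge: CXCL10 (2.02, adjusted p = 0.280), RSAD2 (1.91, adjusted p = 0.204), ISG15 (1.96, adjusted p = 0.145), IRF7 (1.55, adjusted p = 0.0965) and GBP1 (2.95, adjusted p = 0.0576), all edgeR log2 fold changes under the block. At the day 2 edge ISG15, CXCL10 and RSAD2 were lost, and in the day 3 center CXCL10 and RSAD2. Later losses included 4 calls at the day 15 edge and 2 in the day 15 center. IFIT3, called in every state without the block, was lost at the day 11, 13, 15, 19 and 21 edges and in the day 19 center. The wounds of a day came from 3 of the 6 day 0 animals, so under the block only those 3 animals contribute to the fold change.

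Ordered by mean log2(1 + CPM), the day 1 center came first for all genes but CXCL10, whose first state was the day 15 center with 3 libraries, at 166, 15.1 and 82.8 CPM. Day 0 came last for 6 of the 8, whereas the last state was, for RSAD2, the day 19 center at 2.68 ± 0.11 (SD, n = 3) and for IRF7 the day 21 edge at 3.45 ± 0.32 (SD, n = 3). Of the 28 pairs of neighbours in each order, between 0 and 2 differed by more than the larger SD of the pair. For MX1 the one such step was from the day 1 center to the day 3 center, and for GBP1 the step from the day 4 edge to day 0.

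Days were also compared within one set of animals and one location, with the animal as a term, so that no day 0 library and no change of animals entered. An F test over the 7 days of a set called 23 of 32 member tests, beside 57.7% of all gene tests. In the center all 8 genes were called in both sets of animals. At the edge of animals 1323 to 1325 the calls were ISG15, MX1, MX2, IFIT3, IRF7 and GBP1, and at the edge of animals 1326 to 1328 ISG15 alone (edgeR, adjusted p = 0.0260). The strongest member result by adjusted p was that of MX1 in the center of animals 1323 to 1325 (edgeR, adjusted p = 1.10e-07).

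On days 16 to 21, with 3 libraries per state, the counts differed between states. At the edge 8 of 8 genes were called higher than day 0 on day 16, beside 15.0% of all genes, 8 of 8 on day 19, beside 18.0%, and 4 of 8 on day 21, beside 15.3%. In the center they were 6 of 8 on day 16, beside 26.8%, 5 of 8 on day 19, beside 21.4%, and 7 of 8 on day 21, beside 21.0%. With the animal as a block, 3 of the edge calls and 2 of the center calls were lost on each of days 16, 19 and 21. The 3 day 19 center libraries of RSAD2 held 5.72, 4.89 and 5.68 CPM, at and below the lower end of the day 0 range of 5.65 to 13.3 CPM. The fold change of -0.61 ± 0.27 was not called (edgeR, adjusted p = 0.0919). It was called as lower without TMM scaling, and also without the day 0 library of animal 1324, the lowest of day 0 at 5.65 CPM. Leaving out the libraries that stand apart or animal 1324 removes only that library here, so these settings are the same fit. MX1 at the day 21 edge held 36.7, 37.2 and 38.3 CPM, all above the highest day 0 library, and its fold change was 1.24 ± 0.34 (edgeR, adjusted p = 0.0202), lost without replicate 1 or 2 and, at an adjusted p of 0.0676, under the animal block.

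Leaving out each replicate in turn, with the day 0 library that shares only its number and may be of another animal, kept 183 of the 209 calls throughout, including all of those on days 1, 2, 3, 5, 7 and 13. Of the calls that were lost under at least 1 of these, 5 were at the day 16 edge, and 3 each in the day 16 and 19 centers and at the day 19 and 21 edges. On day 9 leaving out edge replicate 4 took MX1 down to 0.63 (edgeR, adjusted p = 0.144), and in the day 19 center leaving out replicate 3 took CXCL10 down to 0.66 (adjusted p = 0.336).

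The third comparison is between the wound edge, where the epidermis borders the wound, and the wound center. Over 14 days and 8 genes, 18 of 112 comparisons were called by edgeR, and 37 had an unadjusted p under 0.05. The edge was higher in 6, beside 12.5% of all gene tests, and the center in 12, beside 11.0%. In this fit, which does not pair edge and center by wound, the share of center calls was near that of all genes. The share of edge calls was below that of all genes, a difference that was not tested. The direction differed between genes. All 6 calls for the edge were for RSAD2 (days 7, 11 and 13), ISG15 (days 11 and 13) and CXCL10 (day 7), whereas MX2, GBP1, IFIT3, MX1 and IRF7 were called only for the center, as was RSAD2 on day 1. With the wound as a block the center calls became 21, beside 12.6% of all gene tests, and the edge calls 3, beside 13.6%.

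On day 1 the center exceeded the edge for GBP1, MX1, MX2, IFIT3, RSAD2 and IRF7, 6 of 8 genes beside 22.6% of all genes. The widest difference was that of GBP1, whose edge libraries ran from 17.0 to 131 CPM and whose center libraries from 84.9 to 553 CPM. The ranges overlapped, and the edge to center log2 fold change was -2.42 ± 0.55 (edgeR, adjusted p = 0.00358). The others ran from -1.61 ± 0.45 for MX2 (adjusted p = 0.0119) to -1.03 ± 0.38 for IRF7 (adjusted p = 0.0417), again with overlapping groups. All 6 calls were lost without animal 1324, at edgeR adjusted p-values of 0.0673 to 0.223 with 4 wounds left. ISG15, at -1.06 ± 0.61, was not called (adjusted p = 0.173), but was with the wound as a block (-1.04, adjusted p = 0.0296).

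In later wounds ISG15 and RSAD2 were called in the other direction. On day 11 ISG15 was at 93.4 to 429 CPM (median 233) at the edge and at 24.8 to 87.3 CPM (median 56.1) in the center. All 6 edge libraries exceeded all 6 center libraries, the only member comparison of 6 against 6 without overlap, beside 8.75% of the 18089 genes. The log2 fold change was 2.29 ± 0.42 (edgeR, adjusted p = 0.00120), and on the same day RSAD2, at 23.8 to 157 CPM (median 72.1) at the edge and 7.44 to 31.4 CPM (median 16.4) in the center, gave 2.30 ± 0.55 (adjusted p = 0.00574), with overlap. These were 2 of 8 genes, beside 20.6% of all genes, and both held with the wound as a block and whichever replicate was left out.

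Other days were less firm. On day 7 CXCL10 was at 11.96 to 231 CPM (median 44.6) at the edge and at 6.34 to 27.3 CPM (median 16.9) in the center, with overlap. It differed by 2.29 ± 0.71 (edgeR, adjusted p = 0.0225) and RSAD2 by 2.04 ± 0.59 (adjusted p = 0.0167), 2 of 8 genes beside 20.4%. With the wound as a block neither was called, at 1.40 (adjusted p = 0.216) and 1.46 (adjusted p = 0.0672). On day 13 ISG15 (1.94 ± 0.54) and RSAD2 (1.39 ± 0.48) were higher at the edge, 2 of 8 beside 16.6%, and GBP1 (-1.03 ± 0.34) in the center, 1 of 8 beside 11.8%, with edgeR adjusted p-values of 0.0162, 0.0459 and 0.0400. Under the block the first pair was lost (adjusted p = 0.0910 and 0.166) and GBP1 was not.

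The remaining calls, all higher in the center, were MX2 on day 4 (-0.88 ± 0.26, edgeR adjusted p = 0.0221) and day 6 (-0.71 ± 0.16, adjusted p = 0.00815), and IFIT3, MX2 and GBP1 on day 9, 3 of 8 beside 14.3%. On day 9 the edge to center log2 fold changes were -1.06 ± 0.28 for IFIT3, -1.13 ± 0.39 for MX2 and -1.03 ± 0.36 for GBP1, and those of MX2 and GBP1 were no longer called without the libraries that stand apart. Pairing edge and center by wound raised the center calls from 12 to 21 of 112, beside 12.6% of all gene tests under that block, among them MX1, IFIT3 and GBP1 on day 4, MX2 on day 5, IRF7 on day 9, GBP1 on day 11, and MX2 and IFIT3 on day 15. It also added MX1 on day 11 for the edge (0.34, adjusted p = 0.0457), which left 3 edge calls, ISG15, RSAD2 and MX1, all on day 11, beside 13.6%. On days 3 and 19 edgeR called 0 genes of the whole table between edge and center, with 1667 and 479 at an unadjusted p under 0.05. Without the libraries that stand apart the day 3 count was 2630, of which 1919 were higher at the edge and 0 were members. The member log2 fold changes then ran from 0.56 to 5.29, against -0.08 to 0.64 with all libraries, and the lowest adjusted p was 0.0554 (edgeR, CXCL10).

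Leaving out each of the 6 replicates in turn kept 5 of the 18 calls throughout, those of GBP1 and MX1 on day 1, MX2 on day 6 and ISG15 and RSAD2 on day 11. Of the other 13, those of MX2 and GBP1 on day 9 and of GBP1 and RSAD2 on day 13 were lost on leaving out any of 5 of the 6 replicates. Without replicate 2, MX2 on day 1 had an adjusted p of 0.0572, and the highest adjusted p of the other day 1 calls was 0.169 for IRF7, 0.152 for IFIT3 and 0.149 for RSAD2, each lost without any of 4 replicates. CXCL10 on day 7 was lost without replicate 3 or 4, the wounds of animal 1324 (down to 1.52, adjusted p up to 0.106), and RSAD2 on day 7 without replicate 3 or 5 (down to 1.46, adjusted p up to 0.0812). ISG15 on day 13 and IFIT3 on day 9 were lost without replicate 1 or 2 (adjusted p up to 0.0766 and 0.0547), and MX2 on day 4 without replicate 2, 4 or 6 (adjusted p up to 0.106).

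**Figure D3:**
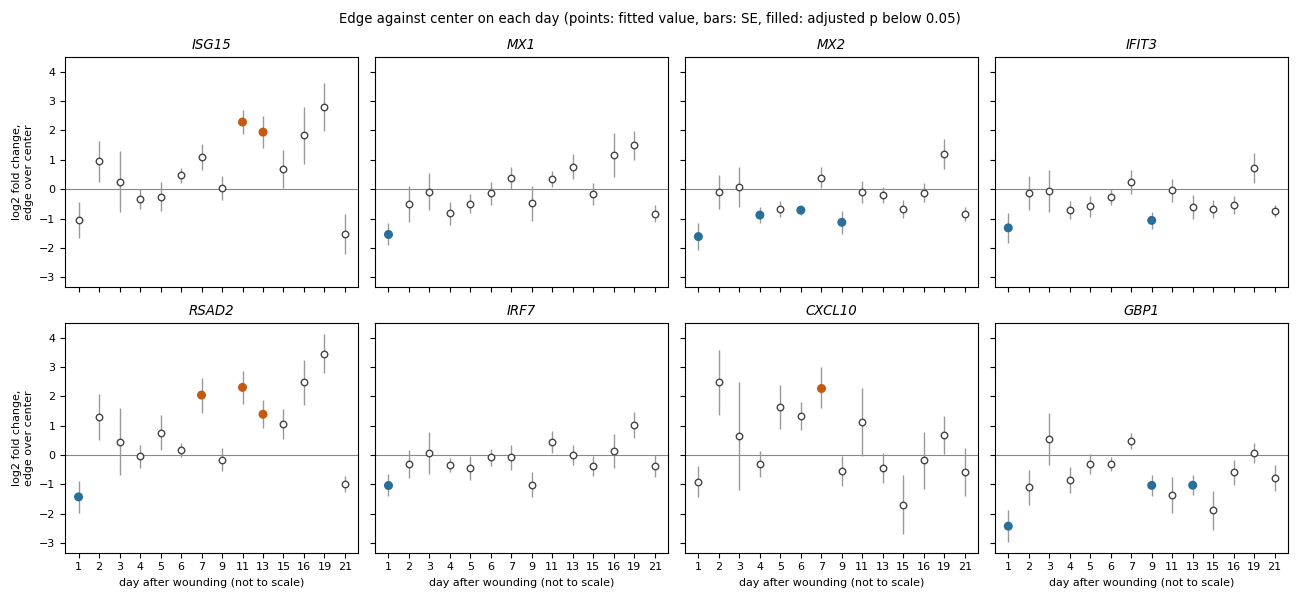
Fitted log2 fold change of the edge over the center for each gene on each of the 14 days, with SE as bars; filled points are called at an adjusted p below 0.05, and points above 0 are higher at the edge. ISG15 and RSAD2 reach 2.29 and 2.30 on day 11, while MX2 is called only below 0, on days 1, 4, 6 and 9.

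Counted wound by wound, without a test, the edge sample exceeded the center sample of the same wound in 42 of 72 wounds for RSAD2 and 39 for ISG15. The count was 32 for CXCL10, 26 for MX1 and 24 for IRF7, and 16 for each of MX2, IFIT3 and GBP1. A change of the edge to center difference over days was tested as an interaction within each set of animals and was called in 5 of 16 member tests, beside 24.1% of all gene tests. The calls in animals 1323 to 1325 were RSAD2 (edgeR, adjusted p = 0.00579), ISG15 (0.00635), GBP1 (0.0334) and MX1 (0.0495), and in animals 1326 to 1328 RSAD2 (0.0239).

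The leukocyte lists differed between the locations as well. On day 11, when ISG15 and RSAD2 were higher at the edge, monocyte and macrophage markers summed to 301 to 994 CPM at the edge and 1187 to 2586 CPM in the center, without overlap. Neutrophil markers summed to 797 to 5526 CPM and 106 to 8675 CPM, T and NK cell markers to 17.8 to 134 CPM and 72.0 to 442 CPM, and keratinocyte markers to 25226 to 68332 CPM and 78.8 to 7209 CPM. Of the 10 marker lists only that of keratinocytes was higher at the edge without overlap. Their part in the result was not tested.

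Wounds of one age differed widely, and at the edge the highest values on days 3, 5 and 7 came from 1 animal. The animal was called as a term in 15 of 32 member tests within location and set of animals, beside 9.17% of all gene tests. At the edge of animals 1323 to 1325 the calls were CXCL10, IFIT3, IRF7, MX1, MX2 and RSAD2, and there the wounds of animal 1324 lay above the mean of their days by 1.65 for CXCL10, 1.13 for RSAD2 and 0.76 for ISG15 on the log2(1 + CPM) scale, as means of 12 wounds. Those of animal 1325 averaged -1.05, -0.65 and -0.64. In the center of animals 1326 to 1328 the calls were GBP1, IFIT3, IRF7, ISG15 and MX1, of which MX1 had the lowest adjusted p (7.68e-05, edgeR). In the center of animals 1323 to 1325 they were IRF7, ISG15 and RSAD2, and at the edge of animals 1326 to 1328 GBP1.

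Animal 1324 was singled out after its values were seen, so the following is a description. At the day 3 edge its 2 wounds held 966 and 1849.7 CPM of CXCL10, whereas the 4 wounds of animals 1323 and 1325 held 2.67 to 8.73 CPM. For ISG15 the values were 838 and 1095 CPM against 31.3 to 59.8 CPM, and for RSAD2 489 and 728 CPM against 17.8 to 39.2 CPM. Both wounds of the animal lay above the other 4 for 8 of 8 genes on day 3 at the edge, beside 9.34% of the 18089 genes. The same held for 8 of 8 genes at the edge on day 5 (beside 7.94%) and on day 7 (beside 6.42%), with narrower gaps. On day 5 CXCL10 held 58.3 and 126 CPM against 3.62 to 9.60 CPM, and on day 7 166 and 231 CPM against 11.96 to 62.3 CPM.

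**Figure D4:**
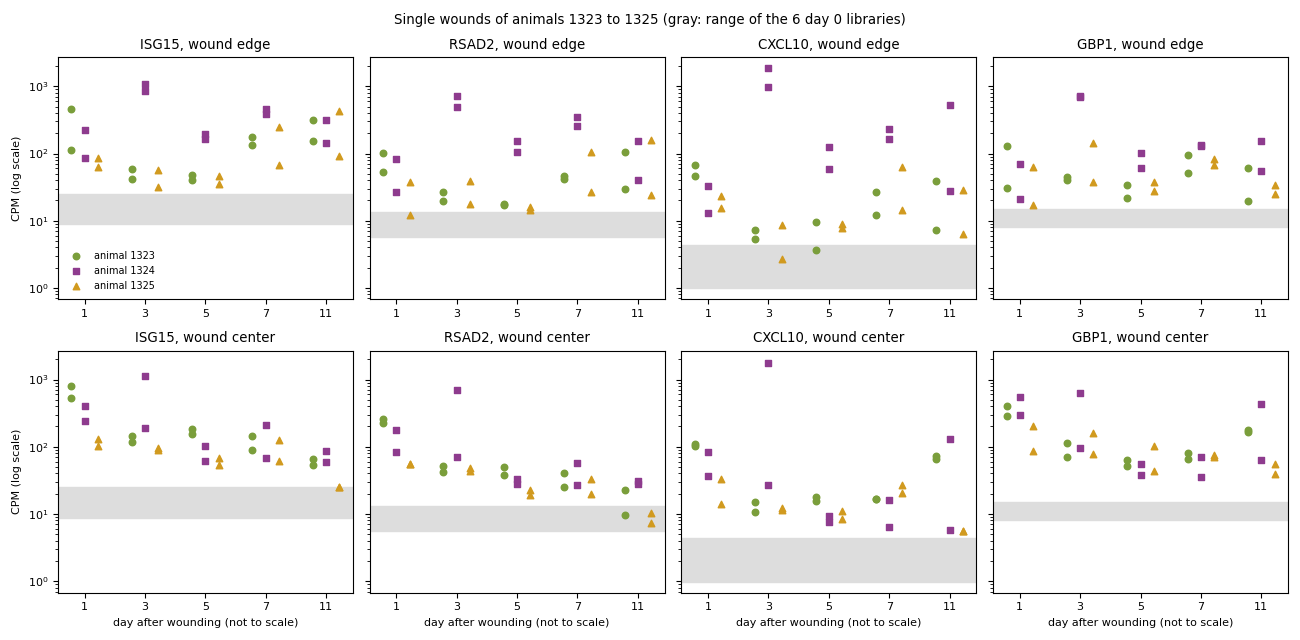
CPM on a log scale of single wounds of animals 1323, 1324 and 1325, by day after wounding and location, with the range of the 6 day 0 libraries in gray; colour and shape give the animal and each point is 1 wound. At the day 3, 5 and 7 edges both wounds of animal 1324 lie above the other 4, for CXCL10 on day 3 at 966 and 1849.7 CPM.

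In the day 3 center both wounds of the same animal lay above the other 4 for 7 of 8 genes, beside 7.23%, and for IRF7 they held 72.0 and 198 CPM against 37.9 to 44.7 CPM. Wound G was the highest of the 6, at 1741 CPM of CXCL10 against 10.8 to 26.7 CPM in the other 5 wounds and 1129.7 CPM of ISG15 against 89.8 to 191 CPM. This is the center library whose keratinocyte markers were at a day 0 level. Without the libraries that stand apart, which here are this one and day 0 replicate 2, the day 3 center log2 fold change against day 0 moved from 6.49 to 2.24 for CXCL10, from 3.95 to 2.21 for RSAD2, from 4.04 to 2.82 for ISG15 and from 3.97 to 3.44 for MX1. All 8 genes were still called in this state, at the lower values. At the day 3 edge, where the libraries left out are replicate 6 and day 0 replicate 2, the values moved little, from 7.22 to 7.54 for CXCL10 and from 4.39 to 4.59 for ISG15.

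The fits were repeated without animal 1324, an alternative chosen after its values were seen. At the day 3 edge, with 4 wounds and 5 day 0 libraries left, CXCL10 moved from 7.22 to 0.88 and was no longer called (edgeR, adjusted p = 0.139). The other 7 genes were still called, beside 22.4% of all genes, at lower values, RSAD2 moving from 4.50 to 1.20, ISG15 from 4.39 to 1.38, IRF7 from 2.77 to 1.05 and MX2 from 4.43 to 2.76. Of the 209 calls against day 0, 202 remained. Between edge and center the day 7 calls of CXCL10 (0.45, edgeR adjusted p = 0.555) and RSAD2 (0.85, adjusted p = 0.158) were lost. All 6 day 1 calls were lost too, although their fold changes stayed between -1.99 and -1.03. Of all genes, 10.5% were still called higher in the center on day 1 without this animal, against 22.6% with all animals. On day 5, where no member was called with all animals, 6 of 8 were then called higher in the center, beside 9.45% of all genes, from -1.44 for ISG15 to -0.97 for RSAD2.

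One wound of the second set of animals did likewise at the edge on day 2. In wound A of animal 1328, likewise chosen after its values were seen, CXCL10 was at 359.9 CPM against 4.43 to 18.0 CPM in the other 5 and ISG15 at 574 CPM against 32.7 to 71.6 CPM. All 8 genes had their highest day 2 edge value in it, beside 17.7% of the 18089 genes. Without this wound and day 0 replicate 5 (animal 1327) the log2 fold change against day 0 moved from 4.32 to 1.63 for CXCL10, from 2.97 to 1.47 for ISG15 and from 2.70 to 0.93 for RSAD2, and all 8 genes were still called.

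Transcripts of those interferons that had a row in the count table were scarce. Of 14 interferon symbols listed, 6 had a row. The listed interferon-alpha symbols (IFNA), IFNL3 and IFND1 had none, so these genes were not measured under their names. IFNW1, an interferon omega, had several rows, of which the main one was used. Of the 6, only IFNW1 and IFNE, interferon-epsilon, had enough counts to be tested in any comparison. Their 36 tests against day 0 gave 0 calls higher, beside 26.1% of all gene tests, and 4 lower, beside 25.3%, all of IFNW1 (edgeR). IFNB1, IFNG, IFNK and IFNL1 were not tested. IFNB1, the gene of interferon-beta, had at least 1 count in 18 of 150 libraries, and its highest count, 14, was in the edge of wound A of animal 1328 on day 2, against at most 4 elsewhere. IFNG, the gene of interferon-gamma, had its highest counts, 86 and 43, in the 2 day 3 edge libraries of animal 1324 (wounds G and F) and 83 in the day 3 center library of wound G. The 4 other day 3 edge libraries held 0 to 4 counts of IFNG, and every other library of the series at most 42. These counts are single values with no test, and intervals on them would cover counting error only. The other ligands had their highest counts in other states, IFNW1 (84 in its main row) in the day 2 center, IFNE (48) in the day 21 center and IFNL1 (9) in day 0 skin, except IFNK (10), whose highest was also at the day 3 edge.

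Most receptors and signalling genes were also higher than day 0 in most wound states. The lists below were grouped by function but chosen with earlier results of these data known. As for the members, their day 0 comparisons share the same 6 libraries. The genes named from a list had the most called comparisons or were chosen after their values were seen. Their counts therefore do not stand for the whole list. Of all gene tests against day 0, 26.1% were called higher and 25.3% lower, and in the day 1 center 33.0% were called higher. IFNAR1, IFNAR2 and IFNGR2 were called higher than day 0 in 28 of 28 states each and IFNGR1 in 27, whereas IFNLR1, the receptor chain for interferon lambda that is found mainly on epithelial cells, was called higher in 0 and lower in 15. In all, 111 of 140 receptor tests were called higher and 15 lower. IFNAR1 rose from a median of 38.0 CPM on day 0 to 274 CPM in the day 1 center, a log2 fold change of 2.58 ± 0.22 (SE).

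Of the JAK-STAT and IRF genes (11 of 11 found) 244 of 308 tests were called higher and 0 lower. In the day 1 center all 11 were higher, with a median log2 fold change of 1.76 beside a median near 0 over all genes tested. There the transcription factors IRF1 and IRF8 rose by 3.11 ± 0.32 and 3.65 ± 0.33 on the log2 scale. IRF1, IRF8 and IRF9 were called higher in 28 of 28 states, whereas the kinase JAK1 was called in 7.

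Among sensors of nucleic acid and their adaptors (13 of 15 found) 187 of 336 tests were called higher and 14 lower. TLR9, which senses DNA in endosomes, and ZBP1, which senses Z-form nucleic acid, were higher in 28 of 28 states, with day 1 center log2 fold changes of 4.35 ± 0.49 and 4.52 ± 0.42. DHX58, a RIG-I-like receptor, was higher in 27. TLR7, an endosomal RNA sensor, was called higher in 2 states and lower in 10, and TICAM1, the adaptor of TLR3, higher in 0.

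Further type I interferon-stimulated genes (31 of 32 found) were called higher in 706 of 854 tests and lower in 4. In the day 1 center 30 of 30 tested were higher, with a median log2 fold change of 2.81 beside 4.30 for the 8 members. BST2, which tethers budding virus to the cell, rose from a median of 6.51 to 121 CPM there (3.93 ± 0.26) and was higher in the center than at the edge on 10 days. IFIT5, IFI44 and LGALS3BP were higher than day 0 in 28 of 28 states. In the day 19 center 17 of 31 genes of this list were called higher, beside 21.4% of all genes, and at the day 21 edge 12 of 31, beside 15.3%.

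Of genes favoured by interferon-gamma (16 of 18 found) 296 of 405 tests were called higher and 15 lower, the 15 all being of LAP3, a leucine aminopeptidase. The immunoproteasome subunits PSMB9 and PSMB10 were higher in 28 of 28 states, with day 1 center log2 fold changes of 3.15 ± 0.30 and 2.92 ± 0.23, as was the adhesion molecule ICAM1 (2.93 ± 0.31), while CIITA, the master regulator of MHC class II genes, was higher in 27 (1.37 ± 0.18). Negative regulators (10 of 10 found) were higher in 195 of 280 tests and lower in 9. SOCS1 counts under both of these lists. SOCS3, an inhibitor of cytokine receptor signalling, rose by 4.61 ± 0.41 in the day 1 center, and USP18, the protease that removes ISG15 from proteins and damps the type I receptor, by 3.02 ± 0.30.

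Between edge and center the lists had more calls for the center than for the edge. The counts for the edge and for the center were 0 and 37 of 154 tests for the JAK-STAT and IRF genes, 9 and 34 of 70 for the receptors, and 18 and 55 of 428 for the other type I genes. They were 6 and 44 of 206 for the interferon-gamma list, 4 and 22 of 168 for the sensors, and 2 and 30 of 140 for the negative regulators. The center calls were 48.6% of tests for the receptors, 24.0% for the JAK-STAT and IRF genes, 21.4% each for the interferon-gamma list and the negative regulators, 13.1% for the sensors and 12.9% for the other type I genes, beside 11.0% of all gene tests, so that the last pair lay near the share of all genes. All 9 edge calls of the receptors were of IFNLR1, and the edge share of every other list was below the 12.5% of all gene tests.

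**Figure D5:**
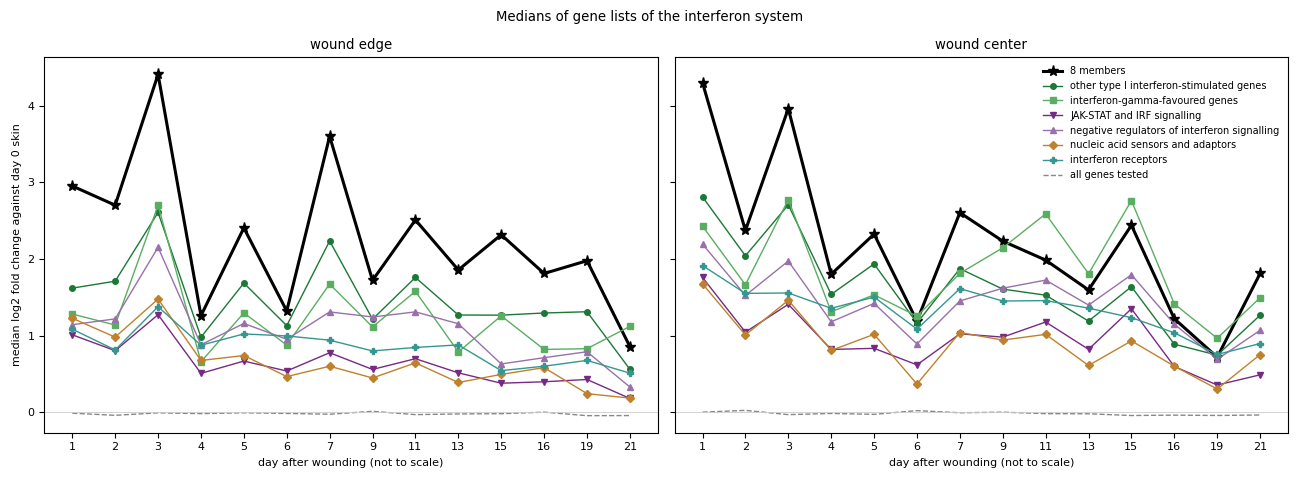
Median log2 fold change against day 0 skin (vertical axis) over the 8 members and over 6 lists of the interferon system, by day after wounding, for the edge (left) and the center (right), with the median over all genes tested as a dashed line. The members reach 4.30 in the day 1 center and 4.41 at the day 3 edge, and 0.72 in the day 19 center, while the median of all genes lies near 0.

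Over the 29 state means, members resembled each other to different degrees. Pearson's r between pairs ran from 0.520 for ISG15 and GBP1 to 0.959 for MX2 and IFIT3, with a median of 0.771 over 28 pairs. These r are descriptions over states that share animals and libraries, with no test. Of 15894 other genes with enough counts, those most like the mean of the members were CMPK2 (0.965), DHX58 (0.961), HERC5 (0.959), ZBP1 (0.958) and PARP12 (0.951), followed by IFIH1, UBE2L6, PARP14, IRF9 and ZNFX1 at 0.949 to 0.941. Apart from PARP12 and ZNFX1, these 10 genes were also in the lists above.

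Pearson's r was also taken between the summed markers of cell types and the members' mean over the 29 states, again as a description. The genes above were picked for their high r, so their values are no measure for those of the marker sums. The r was 0.607 for T and NK cells, 0.549 for monocytes and macrophages, 0.525 for adipocytes, 0.494 for dendritic cells (6 of 8 found), 0.405 for endothelium (7 of 7) and 0.365 for neutrophils. It was 0.254 for skeletal muscle, 0.255 for erythrocytes (5 of 5), -0.305 for keratinocytes and -0.547 for fibroblasts (8 of 8).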

How the data were processed

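Porcine skin and wound biopsies, 150 in all, were sequenced as poly-A selected mRNA in paired reads by Novogene, who removed adapter-containing and low-quality reads, aligned the rest and made a count per gene. The values the authors deposited are these raw counts, and the aligner, the counting tool, its use of strand and the genome build were not given in the sources used here. FPKM values, the second deposited measure, were not used. All count columns matched a sample by name, with 0 left unmapped. The deposited gene lengths were used only for levels per kilobase.

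CPM values used each library's total count, from 13133379 to 24895572, and log2(1 + CPM) a pseudocount of 1. Intervals on counts would cover counting error only, since reads without molecular identifiers are not independent molecules. Samples were grouped by day, location, animal and wound as labelled. Tests used edgeR 4.0.16 in R 4.3.3 on all genes (TMM scaling, a quasi-likelihood F test, genes kept by filterByExpr at a least count of 10 and a least total of 15, and Benjamini-Hochberg adjusted p below 0.05 over all genes of a comparison). Each wound state was fitted with the 6 day 0 libraries, edge with center within a day, and days, animals and the day by location interaction within a set of 3 animals. The edge to center test and the F test over days were tried on simulated counts with known changes, drawn without differences between animals or wounds. The animal, interaction and block fits were not tried on them. Levels and summaries used Python 3.11.15, numpy 2.4.6 and pandas 2.3.3.

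The genes named are all members, the genes of each interferon-system list with the most called comparisons, the 10 genes whose state means follow the members' mean most closely, and markers. The values of 1 gene that this rule names are not reported here. JAK1, IFNLR1, TLR7, TICAM1, LAP3, OASL, DDX60, CXCL11, animal 1324 and wound A of animal 1328 were chosen after their values were seen. The members and lists were chosen with earlier results of these data known. Alternatives were no TMM, no filter, DESeq2 1.42.0, the wound or animal as a replicate block, wounds of an animal summed, all 150 samples in one fit, GBP1 rows summed and each replicate left out. Leaving out the 8 libraries that stand apart, or animal 1324, was added after seeing the data. The pairing of edge and center comes from the labels, which give both biopsies of a wound the same animal and letter, and their deviations from the state means correlated positively in 63 of 72 wounds (mean r of 0.278).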

Additional observations from a re-analysis of the deposited data

Results flagged for a closer look

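In 20 of 168 groups of 6 libraries, the highest or lowest value of a gene lay farther from its nearest neighbour than Dixon's 95% limit allows, where chance flags about 1 in 20 groups, or 8.4 here. Of the 20 values 16 were high and 4 low, and they came from 10 libraries. All values are log2(1 + CPM), and the groups of 1 state are not independent, since the genes share libraries.

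Day 3 center replicate 4 (animal 1324, wound G) was the high value for 7 of the 8 genes, at 10.14 for ISG15, 9.53 for MX1, 9.69 for MX2, 9.76 for IFIT3, 9.45 for RSAD2, 10.77 for CXCL10 and 9.32 for GBP1. It is 1 of the libraries that stand apart over all genes and the center library with keratinocyte markers at a day 0 level. Day 2 edge replicate 5 (animal 1328, wound A) was the high value for 5 genes, at 9.17 for ISG15, 9.07 for IFIT3, 8.25 for RSAD2, 8.50 for CXCL10 and 7.59 for GBP1. It did not stand apart over all genes.

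The other high values were MX2 in day 2 center replicate 4 at 8.18, RSAD2 at 5.35 in day 9 edge replicate 4, IRF7 at 5.86 in day 13 center replicate 3 and CXCL10 at 4.83 in day 13 edge replicate 4. The 4 low values were RSAD2 at 2.86 in day 6 center replicate 2, IRF7 at 4.17 in day 4 center replicate 1, IRF7 at 2.76 in day 6 edge replicate 5 and GBP1 at 5.19 in day 7 center replicate 3.

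The difference between edge and center changed over days in animals 1323 to 1325 for ISG15 (edgeR, adjusted p = 0.00635), MX1 (adjusted p = 0.0495), GBP1 (adjusted p = 0.0334) and RSAD2 (adjusted p = 0.00579), and in animals 1326 to 1328 for RSAD2 (adjusted p = 0.0239).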

How the results depend on the processing

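No result for a single gene changed sign while called. Of the member calls between edge and center, the 6 for the edge became 10 with DESeq2, 3 with the replicate block (pairing by wound), 2 with the wounds of an animal summed and 4 to 6 with 1 replicate left out. The 12 for the center became 21 with the replicate block, 5 with wounds summed, 7 with all 150 samples in one fit and 3 to 11 with 1 replicate left out. Of calls against day 0, the 209 higher ones became 171 with the animal as replicate block, 169 with all samples in one fit and 199 to 204 with 1 replicate left out. The count of lower ones went from 0 to 1, RSAD2 in the day 19 center, without TMM, without the libraries that stand apart and without animal 1324 (0 to 0 on leaving out 1 replicate). In that state, leaving out the libraries that stand apart and leaving out animal 1324 are the same fit. Both remove only the day 0 library of animal 1324. The 23 calls over days became 27 with no replicate block and 17 to 23 with 1 replicate left out, the 15 between animals 5 to 13, and the 5 for the interaction 9 with DESeq2, 5 with the block and 2 to 7 with 1 replicate left out. The cause of these shifts was not tested, beyond the smaller number of samples when wounds are summed or left out. Summing the 3 GBP1 rows changed no call. In all, 3242 values for single results kept direction and side of the threshold and 243 lost the call. Over all genes, 6 counts moved by over 1.5 times: the 5972 genes called between animals became 2845, 3459, 1870 and 3644 without replicate 1, 2, 3 and 6, and the 8227 called for the interaction became 5378 and 3927 without replicate 2 and 3.

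Members had at least 21 counts in each library. Each day had 3 animals, and wounds of 1 animal are not independent animals. Day and set of animals cannot be told apart between neighbouring days. Counting of GBP1 may be shared with family members, and IFIT1 is not analysed here.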

Other observations

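Outside the members, some genes of the interferon system were higher at the edge of later wounds than in the center, in part with overlapping groups. They were chosen after their values were seen, from lists with more calls for the center. Over the 14 days the list of OASL and DDX60 had 18 edge and 55 center calls in 428 tests. That of CXCL11 had 6 and 44 in 206. Of all genes tested, 20.4% were called higher at the edge on day 7 and 20.6% on day 11. On day 11 all edge libraries lay above all center libraries for 8.75% of the 18089 genes. Among the members, the day 7 edge calls of CXCL10 and RSAD2 were lost without animal 1324 and with the wound as a block. Neither setting is reported here for OASL, CXCL11 and DDX60. OASL, an OAS-like antiviral protein, was at 0 to 0.828 CPM (median 0.254) in day 0 skin and at 0.190 to 1.50 CPM (median 0.672) in the day 1 center. That state had the highest mean log2(1 + CPM) for every member but CXCL10. On day 7 OASL was at 1.20 to 48.3 CPM (median 18.4) at the edge and 0.117 to 0.546 CPM (median 0.246) in the center, without overlap, an edge to center log2 fold change of 6.20 ± 0.93 (SE, edgeR adjusted p = 2.28e-04). On day 11 it was at 13.4 to 51.0 CPM (median 27.9) at the edge and 0 to 1.91 CPM (median 0.358) in the center, again without overlap, a log2 fold change of 5.63 ± 0.72 (SE, edgeR adjusted p = 1.25e-04). CXCL11, a ligand of the same receptor as CXCL10, differed on day 7 by 5.16 ± 0.95 (SE, edgeR adjusted p = 0.00104), with 1.09 to 44.5 CPM (median 8.08) at the edge and 0.158 to 0.698 CPM (median 0.440) in the center, without overlap. On day 11 CXCL11 was at 0.884 to 44.0 CPM (median 3.10) at the edge and 0.0653 to 4.51 CPM (median 0.557) in the center, with overlap. DDX60, a helicase of the antiviral response, differed by 2.61 ± 0.59 (SE, edgeR adjusted p = 0.00397) on day 7, with 5.90 to 90.5 CPM (median 28.2) at the edge and 4.47 to 10.04 CPM (median 6.49) in the center, and by 2.39 ± 0.54 (SE, edgeR adjusted p = 0.00382) on day 11, with 10.5 to 85.3 CPM (median 37.0) and 3.59 to 20.4 CPM (median 5.94), the groups overlapping on both days.

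IFNLR1, the interferon lambda receptor chain, was at 3.45 to 9.14 CPM (median 5.10) in day 0 skin, 1.75 to 7.73 CPM (median 6.23) at the day 1 edge and 0.0532 to 1.40 CPM (median 0.200) in the day 1 center, an edge to center log2 fold change of 3.80 ± 0.65 (SE, edgeR adjusted p = 6.99e-04). Keratinocyte markers summed to 37229 to 57883 CPM at that edge and 152 to 18233 CPM in that center. Their part in the result was not tested.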
